A study of Mus musculus with 9 samples.

Results

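Motile cilium genes of the ependyma were examined in the hippocampus of N4 Ube3am-/p+ mice that had received Ant-134, a locked nucleic acid oligonucleotide that inhibits miR-134, or a scrambled oligonucleotide (Scr). The members were 40 genes chosen for their known part in the motile axoneme or the ependyma, and they were found by gene symbol in a count table of 54532 genes. All 40 were in the table, which held a count in any library for 37454 genes. The study tested 5 Ant-134 mice against 4 Scr mice, with 1 ipsilateral hippocampus of 1 mouse in each library. Every mouse in both groups inherited a mutated maternal Ube3a allele, which models Angelman syndrome, on a background crossed to 129Sv/Ev, so no wild-type animal entered the comparison. Each mouse was injected once into the cerebral ventricle with 0.5 nmol of oligonucleotide at postnatal day 21, underwent audiogenic seizure induction on days 22, 24 and 26, and gave its brain on day 27 after perfusion with saline. Both sexes were used, and the sex of each mouse is not given in the sources used here.

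Ependymal cells line the brain ventricles, including the lateral ventricle that borders the hippocampus, and carry tufts of motile cilia that move cerebrospinal fluid. A motile cilium holds an axoneme of microtubule doublets around a central pair, bent by dynein arms and coordinated by radial spokes, the central apparatus and the nexin-dynein regulatory complex. Genes for these parts are switched on by Foxj1 and by RFX factors, which bind X-box elements in the promoters of ciliary genes. Neurons and astrocytes carry a single primary cilium without dynein arms, which shares intraflagellar transport with motile cilia.

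Reference sequences are given first for the inhibited miRNA and for 4 member promoters. The miRNA is the target of the treatment, and the promoters hold the letters of the RFX half-site described below. Binding of RFX factors was not measured. The mature miRNA (RefSeq, GRCm38.p6, chr12:109734145-109734166, plus strand) carries its seed, bases 2 to 8, in capitals.
mmu-miR-134-5p: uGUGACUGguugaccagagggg

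A 3′ UTR match to bases 2 to 8 (CAGTCAC) or to bases 1 to 7 (AGTCACA) of the miRNA, in the longest annotated 3′ UTR, was found in 4 of 40 members (10%), against 17.0% of 21026 genes. The 4 matches are shown with the matching bases in capitals, since they are the only members with such a match by these letters.
Spag16 3′ UTR match: tgcttattcttAGTCACAgggaatcccag
Spag17 3′ UTR match: aaactatatagAGTCACAacagggcagct
Ak7 3′ UTR match: tactcttaggtCAGTCACAacgctgcacat
Ak8 3′ UTR match: ataaagatgctAGTCACAacctc
The Ak7 match covers both, and the other members match bases 1 to 7 without base 8. A match is a description of sequence only. The fitted log2 fold changes of these genes, Ant-134 against Scr, were -0.53 for Spag16, -0.99 for Spag17, -0.31 for Ak7 and 0.04 for Ak8. Among them Spag17 alone passed an unadjusted p of 0.05, and its direction was lower after inhibition of the miRNA.

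Promoter windows (RefSeq, GRCm38.p6, 250 bases before to 50 after the start of transcription) were given for 33 members. No entry was given for Armc4, Cfap54, Cfap65, Foxj1, Rsph1, Rsph4a and Ttc25. The RFX half-site GTTGCC, on either strand, was present in 14 of these 33 members (42.4%), against 14.1% of 27025 genes. These members were Ccdc153, Cfap44, Drc1, Dynlrb2, Fam183b, Hydin, Pifo, Rfx2, Rfx3, Sntn, Spag16, Spag6l, Tekt1 and Tekt4. Counted over windows, since a gene can have several, the shares were 37.8% of 37 member windows and 12.5% of 32851 windows. The pair GTTNCC followed by GGNAAC, with 0 to 3 bases between them, was searched as a form of the X-box. It occurred in 2 members (6.06%), Pifo and Fam183b, against 0.936% of genes. Other spellings of the X-box were not searched, so these shares do not count every X-box. The forkhead letters GTAAACA, on either strand, occurred in 3 members (9.09%), Ak7, Cfap43 and Sntn, against 4.05% of genes.

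The promoters of the 2 members with this pair are shown with those of Ccdc153 and Dynlrb2, which are described below among the members lower in Ant-134. Capitals mark GTTGCC, its complement GGCAAC and the searched pair. The Ccdc153 window lies at chr9:44240427-44240726 on the plus strand, and its half-site starts at position -152 from the transcription start. That of Dynlrb2 lies at chr8:116504765-116505064 on the plus strand, with the half-site at -51. The letters that follow the half-site, tagcaac, fall outside the pair searched, so this gene is not shown to lack a full X-box. The Pifo window is chr3:106001448-106001747 on the minus strand, with the pair at -20, and the Fam183b window is chr11:58801911-58802210 on the minus strand, with the pair at -16 and a further half-site upstream of it.
Ccdc153 promoter: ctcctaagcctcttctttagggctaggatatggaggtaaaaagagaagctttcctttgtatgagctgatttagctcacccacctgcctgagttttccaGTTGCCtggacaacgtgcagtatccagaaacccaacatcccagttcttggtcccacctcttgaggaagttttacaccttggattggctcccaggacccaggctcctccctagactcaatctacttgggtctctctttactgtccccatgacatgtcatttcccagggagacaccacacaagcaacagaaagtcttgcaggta
Dynlrb2 promoter: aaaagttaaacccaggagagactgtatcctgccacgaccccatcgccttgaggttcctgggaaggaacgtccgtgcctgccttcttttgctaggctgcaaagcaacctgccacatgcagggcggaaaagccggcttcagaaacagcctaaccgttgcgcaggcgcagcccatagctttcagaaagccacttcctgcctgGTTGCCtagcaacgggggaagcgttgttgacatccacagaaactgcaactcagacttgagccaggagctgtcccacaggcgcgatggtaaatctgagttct
Pifo promoter: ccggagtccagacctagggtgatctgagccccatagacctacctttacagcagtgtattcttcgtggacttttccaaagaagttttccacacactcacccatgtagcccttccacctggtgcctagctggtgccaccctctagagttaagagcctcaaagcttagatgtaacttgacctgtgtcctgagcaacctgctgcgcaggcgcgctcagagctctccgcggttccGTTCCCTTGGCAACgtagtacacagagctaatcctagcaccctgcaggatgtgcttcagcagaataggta
Fam183b promoter: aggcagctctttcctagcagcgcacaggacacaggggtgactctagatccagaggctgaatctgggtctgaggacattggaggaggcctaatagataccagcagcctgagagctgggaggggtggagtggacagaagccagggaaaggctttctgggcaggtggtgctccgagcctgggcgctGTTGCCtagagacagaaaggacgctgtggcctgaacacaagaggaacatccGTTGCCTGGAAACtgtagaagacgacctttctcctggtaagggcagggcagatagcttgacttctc
The pairs of Pifo and Fam183b both lie just upstream of the transcription start. Pifo has a second window, at the gene's 5′ end (chr3:106014597-106014896, minus strand), which holds none of the motifs searched, so its pair lies at an internal start. Neither gene passed the test between the groups, as given below.

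Libraries held 28583298 to 41978113 assigned counts, and members took 0.0286% to 0.0375% of them. Levels are given as CPM, counts relative to library size scaled by edgeR's TMM factors, and genes are ranked by level as FPKM, which also divides by transcript length. Hippocampal neuron markers were present in every library, among them Prox1, a dentate granule cell factor, at 72.6 to 109 CPM. Of the 10 markers, 9 had a fitted fold change above 0, with a median log2 fold change of 0.11. None passed the unadjusted p. Among 19 alternative analyses, 1 or 2 markers were called higher in 7 and some were called lower in 2. Their part in the results below was not tested. RNA of tissue that borders the hippocampus differed widely between libraries, and 2 libraries, Ant-134 1 and Scr 3, stood apart. The summed level of 18 choroid plexus markers was 3561, 496, 986, 213 and 228 CPM in Ant-134 1 to 5 and 494, 1447, 2621 and 245 CPM in Scr 1 to 4, a 16.8-fold range. Each marker of this list had at least 2 counts in each library, and none of the 18 passed an unadjusted p of 0.05 between the groups. In 2 of 19 alternative analyses some were called lower. The summed levels of erythrocyte and of thalamic markers were highest in Ant-134 3. The counts of members and of the main gene lists called lower, the member median and Foxj1 are therefore also given without Ant-134 1 and Scr 3, an alternative chosen after the data had been seen.

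The mean level over the 9 mice was below 1 FPKM for 20 of the 40 members, and the median was 0.971 FPKM. The highest levels belonged to Drc1, a subunit of the nexin-dynein regulatory complex, at 8.94 FPKM, and Rfx3, an RFX factor that also acts in cells with a primary cilium, at 8.75 FPKM. Rsph9, a radial spoke head protein, followed at 7.48 FPKM and Foxj1, the master regulator of motile ciliogenesis, at 5.07 FPKM. Next came Fam183b (4.24 FPKM), Ccdc39, which with Ccdc40 forms the molecular ruler of the axoneme (3.69 FPKM), Rsph1 (3.62 FPKM) and Tekt1, a tektin of the doublet wall (2.16 FPKM). At the other end, Sntn, a protein of the cilium tip, had 2 to 19 counts per library and Mia had 0 to 5 counts. Sntn and Mia did not pass the filter on low counts, which left 38 members. A library in which a gene has 0 counts allows up to 3 counts, or 0.0709 to 0.107 CPM depending on the library, and this covers counting error only.

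**Figure D1:**
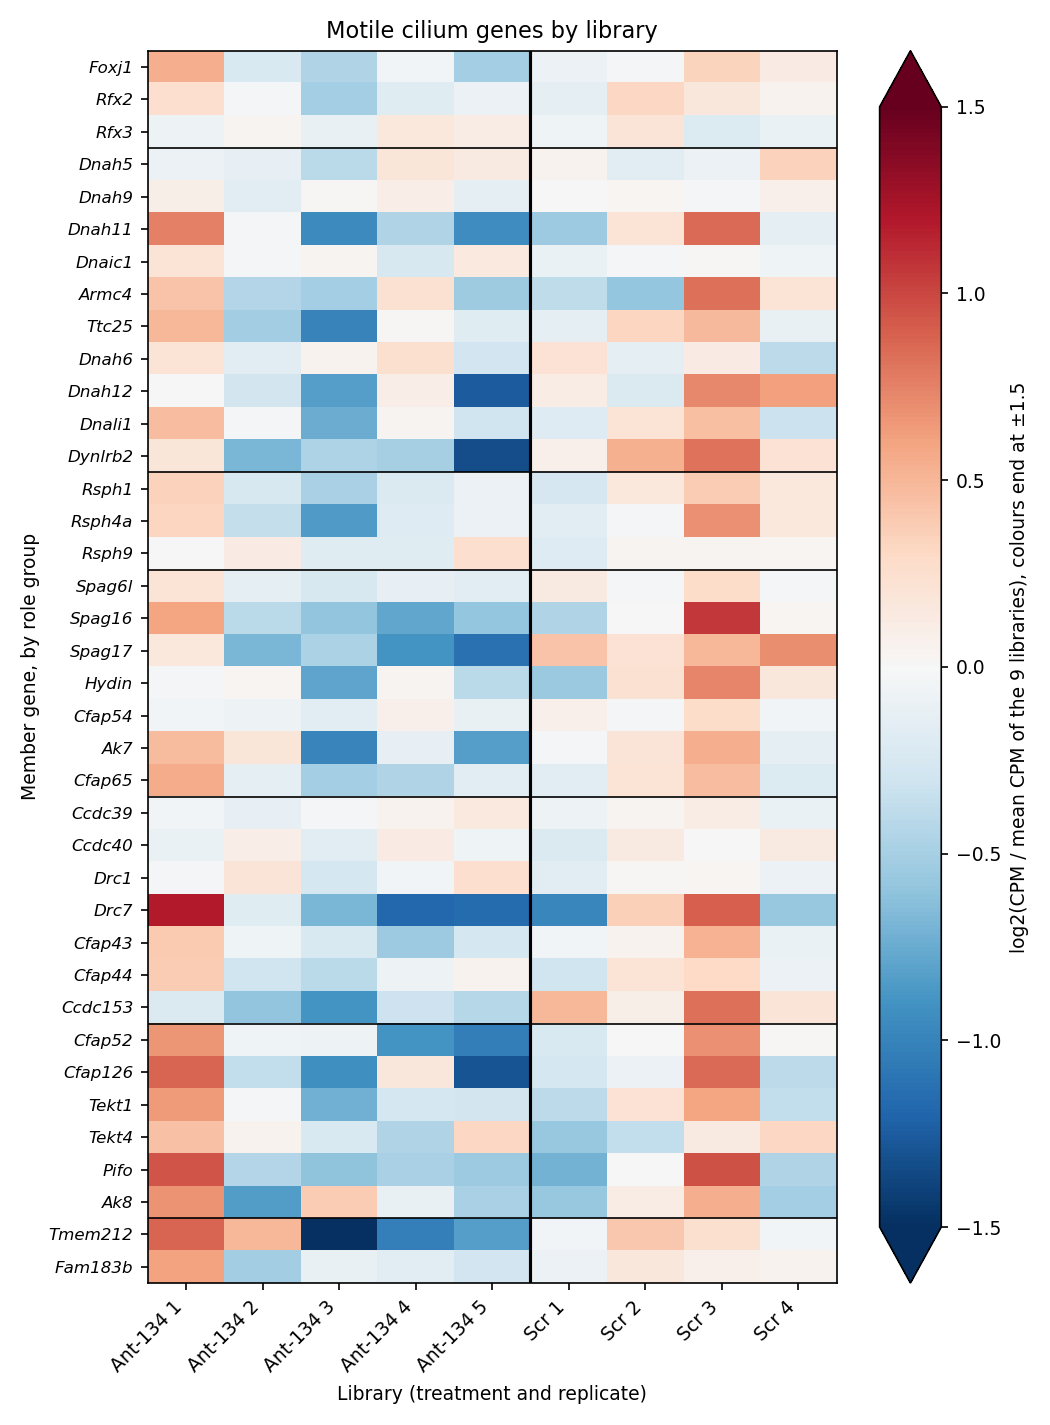
Level of each of the 38 tested members (rows, grouped by role with black lines) in each of the 9 libraries (columns), as the log2 ratio of its CPM to its mean CPM over all libraries. Red is above the mean and blue below it; Ant-134 1 and Scr 3 are red for most members, Ant-134 3 is blue for many, and a few rows such as Dnah9, Ccdc39 and Rfx3 are pale throughout.

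The members varied more between mice of the same group than most genes did. The biological coefficient of variation, edgeR's estimate of the spread between mice beyond counting noise, had a median of 22.02% over the 38 members and 11.4% over all 19782 genes tested. The gap was narrower at low levels, where genes under 10 CPM had medians of 24.1% over 29 members and 20.4% over 9166 genes. The highest library exceeded the lowest by at least 2-fold for 24 members, with a median of 2.25-fold over the 38.

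Tmem212, which encodes a predicted membrane protein, had the widest range at 7.34-fold. Its level was 1.83, 1.40, 0.249, 0.491 and 0.563 CPM in Ant-134 1 to 5 and 0.972, 1.32, 1.17 and 0.967 CPM in Scr 1 to 4. The 4 Scr libraries lay close together, while the Ant-134 libraries reached both above and below them, and the log2 fold change was -0.27 ± 0.451. Drc7, another subunit of the nexin-dynein regulatory complex, spanned 5.13-fold, with 8.56, 3.33, 2.35, 1.67 and 1.69 CPM in Ant-134 1 to 5 and 1.91, 4.85, 7.01 and 2.55 CPM in Scr 1 to 4. One library of each group, Ant-134 1 and Scr 3, was far above the lowest libraries of both groups. The spread of Drc7 between mice was 61.8%, and its difference between groups was -0.21 ± 0.616 (log2 fold change ± standard error), with a 95% interval from -1.53 to 1.11. Cfap126 (4.49-fold), Dynlrb2 (4.43-fold) and Dnah12 (3.92-fold) had the next widest ranges.

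By contrast, 9 members stayed within 1.5-fold over all 9 mice. They were Dnah9 (1.20-fold), an outer dynein arm heavy chain, Ccdc39 (1.20-fold), Ccdc40 (1.28-fold), Rfx3 (1.32-fold), Cfap54 (1.36-fold), a central apparatus protein, Dnaic1 (1.36-fold), a dynein intermediate chain, Rsph9 (1.37-fold), Spag6l (1.43-fold), a central apparatus protein, and Drc1 (1.44-fold). Ccdc39, for example, measured 26.9, 25.5, 27.1, 28.7 and 30.7 CPM in Ant-134 1 to 5 and 26.2, 28.5, 30.1 and 25.98 CPM in Scr 1 to 4. The groups overlapped completely, with a log2 fold change of 0.00 ± 0.0671 (exact permutation p = 0.944). Exons of Ccdc39 share 16.9% of their bases with Ttc14 on the opposite strand, which was at 182 CPM, and the strand setting of the counting is not given in the sources used here, so reads of the pair may be mixed. Of these 9 members, 6 had a mean level above 10 CPM, whereas 23 of the 24 members with at least a 2-fold range were below it. The 3 members with the highest level per length, Drc1, Rfx3 and Rsph9, were thus among the steady ones, and Foxj1, the next, had a 2.07-fold range.

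The same libraries were high for many members. Scr 3 was the highest library for 15 of 38 members and Ant-134 1 for 13, so that these libraries were highest for 73.7% of the members and for 22.2% of all genes tested. Both together held the top 2 places for 19 of 38 members, against 3.66% of all genes tested. Ant-134 3 was the lowest library for 17 members (44.7%), against 12.7% of all genes. Among the 24 wide-ranging members, 16 had Ant-134 1 and Scr 3 on top, and among the 9 steady ones, 1 did. These members are not independent observations, since they come from the same 9 tissue pieces.

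The median member, relative to its mean over the mice, stood at 0.36, -0.14, -0.46, -0.15 and -0.28 (log2) in Ant-134 1 to 5 and at -0.15, 0.07, 0.46 and -0.03 in Scr 1 to 4. Summed over the 40 members the level was 372, 324, 291, 339 and 329 CPM in Ant-134 1 to 5 and 319, 359, 371 and 325 CPM in Scr 1 to 4. The means were 331 ± 29.1 CPM (SD, n = 5) and 343 ± 25.2 CPM (SD, n = 4), and the highest library exceeded the lowest by 1.28-fold. This sum is dominated by steady members such as Rfx3, at 97.5 CPM on average, so it moved less than the median member did.

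**Figure D2:**
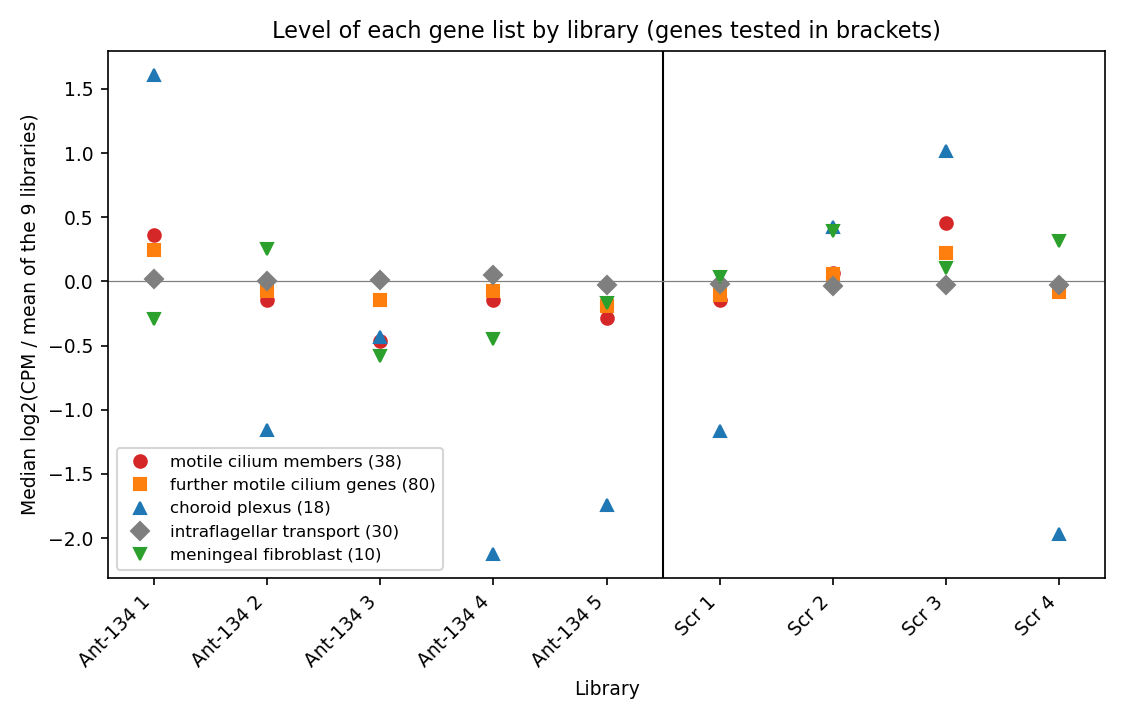
Median log2 ratio of CPM to the gene's mean over the 9 libraries (y axis) for 5 gene lists in each library (x axis; tested genes per list in brackets). Choroid plexus markers (blue triangles) range from -2.13 in Ant-134 4 to 1.61 in Ant-134 1, the motile cilium members (red circles) peak in Ant-134 1 and Scr 3, and intraflagellar transport genes (grey diamonds) stay near 0.

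Choroid plexus markers were on top in the same libraries as the members. Ttr, the transthyretin gene that choroid plexus epithelium expresses at a very high level, measured 2417, 276, 638, 46.1 and 76.2 CPM in Ant-134 1 to 5 and 241, 1006, 1932 and 56.9 CPM in Scr 1 to 4. Ant-134 1 and Scr 3 held the top 2 places for 17 of the 18 choroid plexus markers. The order of the other libraries differed between the lists, since Ant-134 3 had the lowest median member level but, at 986 CPM, the highest choroid plexus level after Ant-134 1, Scr 3 and Scr 2. The choroid plexus carries ciliated epithelium of its own. Whether it, the ependyma, other cells of the tissue or several of these supplied the member RNA was not tested.

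Further motile cilium genes outside the 40 were read in the same way. Of 85 found in the table, 80 were tested, and Ant-134 1 and Scr 3 were the top 2 libraries for 27 of them, against 3.66% of all genes tested. By comparison, 3 of 30 genes of intraflagellar transport and the primary cilium had this order, and the median spread of that list between mice was 7.42%. Its most abundant gene, Kifap3, a subunit of the kinesin-2 motor, measured 260 ± 7.21 CPM (SD, n = 5) in Ant-134 and 247 ± 14.0 CPM (SD, n = 4) in Scr. The regulators of multiciliation had a median spread of 15.1%.

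The comparison of Ant-134 with Scr asked whether inhibiting miR-134 was accompanied by a different level of motile cilium transcripts. In Ant-134, 4 members were lower at an unadjusted p below 0.05 and none was higher. They were Ccdc153, Spag17, Dynlrb2 and Dnah12, which belong to 3 different parts of the axoneme. The 4 of 38 members lower (10.5%) compare with 2.69% of all 19782 genes tested, and the 0 higher with 1.49%. With edgeR's quasi-likelihood test no gene of the table, and so no member, passed a Benjamini-Hochberg adjusted p of 0.05, while 827 genes passed at the unadjusted p. DESeq2 called 16 genes at the adjusted threshold, no member among them, and at the unadjusted p it called the same 4 of 40 members lower, against 1.66% of 37435 genes. Of the 38 members, 30 (78.9%) had a fitted fold change below 0, against 48.8% of all genes, and the median log2 fold change was -0.19, against 0.00 for all genes. Members share tissue pieces, so these counts describe the list and carry no test.

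Ccdc153, a coiled-coil gene used as an ependymal marker, was the member with the smallest p. It measured 1.65, 1.27, 1.03, 1.54 and 1.42 CPM in Ant-134 1 to 5 and 2.70, 2.03, 3.40 and 2.20 CPM in Scr 1 to 4. Every Ant-134 library was below every Scr library. The log2 fold change was -0.89 ± 0.197 (p = 0.000421, adjusted p = 0.592, edgeR), and the exact two-sided permutation test over the 9 mice gave p = 0.00794, the smallest that 5 against 4 allows. With DESeq2 the adjusted p was 0.0696. In each of 19 alternative analyses Ccdc153 stayed below an unadjusted p of 0.05.

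Spag17, a central apparatus protein, measured 0.884, 0.494, 0.570, 0.426 and 0.364 CPM in Ant-134 1 to 5 and 1.07, 0.922, 1.115 and 1.29 CPM in Scr 1 to 4. Again the groups did not overlap. Its log2 fold change was -0.99 ± 0.271 (p = 0.00243, adjusted p = 0.987, edgeR; exact permutation p = 0.0159). These levels rest on 11 to 44 counts per library. Exons of Spag17 share 9.66% of their bases with Wdr3 on the opposite strand, and Wdr3 was at 19.4 CPM with a log2 fold change of -0.08, so reads of the pair cannot be told apart there without strand. Ccdc153 and Spag17 were the members without overlap between groups with Ant-134 lower, 2 of 38 (5.26%), against 0.895% of all genes tested, and 0 members had every Ant-134 library higher, against 0.647%.

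Dynlrb2, a roadblock-type dynein light chain, measured 0.945, 0.520, 0.605, 0.590 and 0.331 CPM in Ant-134 1 to 5 and 0.878, 1.21, 1.47 and 0.967 CPM in Scr 1 to 4. Only Ant-134 1 reached into the Scr range. The log2 fold change was -0.91 ± 0.286 (p = 0.00621, adjusted p = 0.998, edgeR; exact permutation p = 0.0238). Its paralog Dynlrb1, which serves cytoplasmic dynein, was at 112 CPM with a log2 fold change of 0.08, and whether the counting split reads between them was not tested. Dnah12, an inner arm heavy chain, measured 1.89, 1.56, 1.07, 2.03 and 0.794 CPM in Ant-134 1 to 5 and 2.04, 1.63, 3.11 and 2.90 CPM in Scr 1 to 4. Here the groups overlapped. The log2 fold change was -0.71 ± 0.271 (p = 0.0204, adjusted p = 0.998, edgeR; exact permutation p = 0.0556). Dnah12 lost its call in 6 of 19 alternative analyses, among them those without Scr 3 (log2 fold change -0.56) and without Scr 4 (-0.61).

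**Figure D3:**
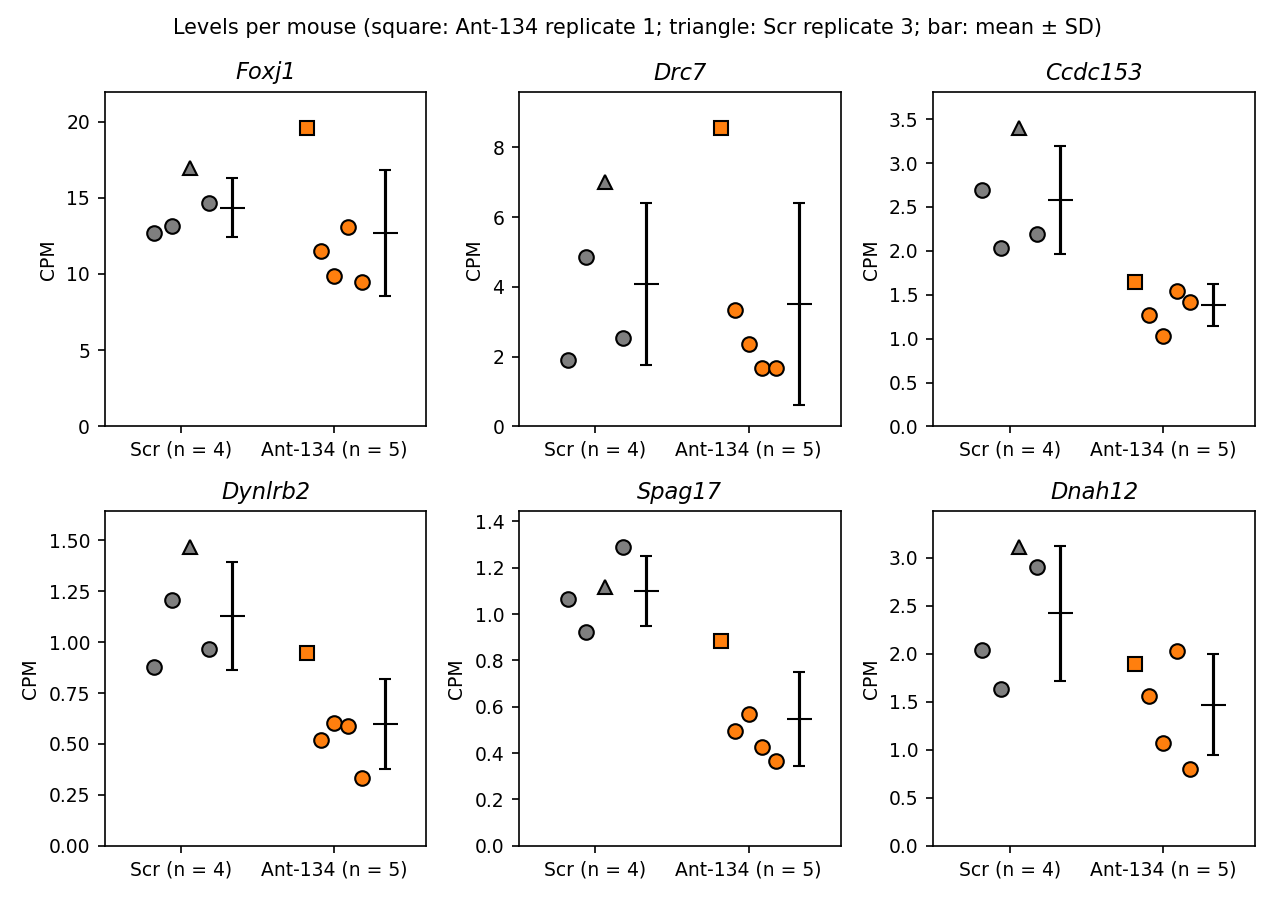
CPM of Foxj1, Drc7 and the 4 members lower in Ant-134 (y axes) in each mouse (points), for Scr (n = 4) and Ant-134 (n = 5), with the mean and SD as bars; the square is Ant-134 1 and the triangle Scr 3. Ccdc153 and Spag17 show no overlap between the groups, whereas for Foxj1 and Drc7 the square lies above every other point.

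Ant-134 1, the Ant-134 library with the highest choroid plexus level, had rank 5 of the 9 libraries, counted from the highest, for Ccdc153, Spag17 and Dnah12 and rank 4 for Dynlrb2, while it had rank 1 for 13 other members. Without Ant-134 1, 14 members were lower at the unadjusted p, against 3.60% of all genes in that analysis. The 10 added were Foxj1, Rfx2, Dnah11, Rsph1, Rsph4a, Spag6l, Spag16, Cfap65, Cfap43 and Cfap52. Without Scr 3, 3 members were lower, with Dnah12 lost, against 2.17% of all genes. Without both of these libraries, 5 members were lower, the 4 above and Foxj1, against 2.81% of all genes. The median log2 fold change of the members was -0.38 without Ant-134 1, -0.06 without Scr 3, -0.10 without Ant-134 3 and -0.23 without both Ant-134 1 and Scr 3, so its size depended on which single mice were included. In bulk tissue, fewer ependymal cells and less RNA per cell cannot be told apart, and neither can a difference in how much ventricular wall was dissected. The cells that supplied the member RNA were not identified.

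Among the transcription factors, none of the 3 passed the test in either direction. Foxj1 measured 19.6, 11.5, 9.86, 13.1 and 9.46 CPM in Ant-134 1 to 5 and 12.7, 13.2, 17.0 and 14.7 CPM in Scr 1 to 4. Ant-134 1 was the highest library of all, and 3 of the other 4 Ant-134 libraries were below every Scr library. The log2 fold change was -0.17 ± 0.209, with a 95% interval from -0.62 to 0.27 (adjusted p = 0.998, edgeR; exact permutation p = 0.468). It was -0.39 without Ant-134 1 and -0.30 without both Ant-134 1 and Scr 3, and passed the unadjusted threshold in both of these analyses. Rfx2, an RFX factor of multiciliated cells, was at 5.51 ± 1.03 CPM (SD, n = 5) in Ant-134 and 6.33 ± 0.828 CPM (SD, n = 4) in Scr, with a log2 fold change of -0.20 ± 0.144. Rfx3 was at 99.3 ± 8.04 CPM (SD, n = 5) in Ant-134 and 95.1 ± 11.5 CPM (SD, n = 4) in Scr, with a log2 fold change of 0.06 ± 0.0796 and an interval from -0.11 to 0.23.

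Of the 10 genes of the dynein arms and their docking, Dnah12 and Dynlrb2 were lower, against 2.69% of all genes, and none was higher, against 1.49%. The most abundant of these genes per length, Dnah9, an outer arm heavy chain, measured 25.7 ± 2.23 CPM (SD, n = 5) in Ant-134 and 26.4 ± 0.868 CPM (SD, n = 4) in Scr. Its log2 fold change of -0.04 ± 0.0671 had a 95% interval from -0.18 to 0.11, the narrowest among these 10 members. Dnah5 and Dnaic1 of the outer arm and Dnah6 of the inner arm had log2 fold changes between -0.09 and 0.08. The remaining genes, Dnah11, Armc4, Ttc25 and Dnali1, were between -0.35 and -0.12 with standard errors of 0.235 to 0.386, and none of them passed the test. Dnah11 was among the members highest in Scr 3, at 3.87 CPM, with Ant-134 1 next at 3.63 CPM and the other 7 libraries between 1.10 and 2.48 CPM.

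None of the 3 radial spoke genes passed the test. Rsph9 was at 12.2 ± 1.63 CPM (SD, n = 5) in Ant-134 and 11.9 ± 0.917 CPM (SD, n = 4) in Scr, with a log2 fold change of 0.03 ± 0.101 which was -0.03 without Ant-134 5 and -0.02 without Scr 1. Rsph4a, another spoke head protein, was at 3.33 ± 0.955 CPM (SD, n = 5) in Ant-134 and 4.37 ± 1.21 CPM (SD, n = 4) in Scr, a log2 fold change of -0.39 ± 0.219 (exact permutation p = 0.214). Rsph1 had a log2 fold change of -0.24 ± 0.170.

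All 7 central apparatus genes had a fitted fold change below 0, against 48.8% of all genes, and Spag17 was the one that passed the test, against 2.69% of all genes lower. Cfap54, with the highest level per length of the group at 1.68 FPKM, measured 23.8 ± 1.55 CPM (SD, n = 5) in Ant-134 and 26.1 ± 2.72 CPM (SD, n = 4) in Scr. Its log2 fold change was -0.13 ± 0.0740 (exact permutation p = 0.143). Hydin, whose loss causes hydrocephalus in mice, had a log2 fold change of -0.40 ± 0.246, and Spag16 one of -0.53 ± 0.340. Spag16 was high in both libraries that stood apart, at 1.86 CPM in Ant-134 1 and 2.58 CPM in Scr 3 against 0.721 to 1.26 CPM in the other 7 libraries. Reads of Spag6l may be shared with its paralog Spag6, which had a mean of 1.93 CPM and a log2 fold change of -0.12.

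Of the 7 genes of the axonemal ruler, the nexin-dynein regulatory complex and the tethers, Ccdc153 alone passed, against 2.69% of all genes lower. Drc1 was at 24.8 ± 3.48 CPM (SD, n = 5) in Ant-134 and 23.5 ± 1.41 CPM (SD, n = 4) in Scr, a log2 fold change of 0.08 ± 0.0919. Ccdc40, the partner of Ccdc39, differed by -0.04 ± 0.125 and Cfap43 and Cfap44, which tether inner arms, by -0.23 ± 0.179 and -0.09 ± 0.166.

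None of the 6 genes of the doublet wall and its inner proteins passed. Tekt1 was at 3.39 ± 1.26 CPM (SD, n = 5) in Ant-134 and 3.71 ± 1.27 CPM (SD, n = 4) in Scr, a log2 fold change of -0.13 ± 0.277 that became 0.09 without Scr 3. Cfap52 was at 1.595 ± 0.780 CPM (SD, n = 5) and 1.98 ± 0.593 CPM (SD, n = 4), a log2 fold change of -0.30 ± 0.318. The spread of this group was wide, with a median of 31.5% between mice, and Ant-134 1 and Scr 3 were the top 2 libraries for 5 of its 6 genes. Pifo, a gene of the cilium base, carries the searched pair shown above. It measured 1.77 CPM in Ant-134 1, 1.79 CPM in Scr 3 and 0.564 to 0.922 CPM in the other 7 libraries.

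In the last group, Tmem212 and Fam183b were tested and neither passed. Fam183b also carries the searched pair in its promoter. It was at 2.35 ± 0.775 CPM (SD, n = 5) in Ant-134 and 2.53 ± 0.187 CPM (SD, n = 4) in Scr. Its log2 fold change was -0.10 ± 0.204 with a 95% interval from -0.54 to 0.33.

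**Figure D4:**
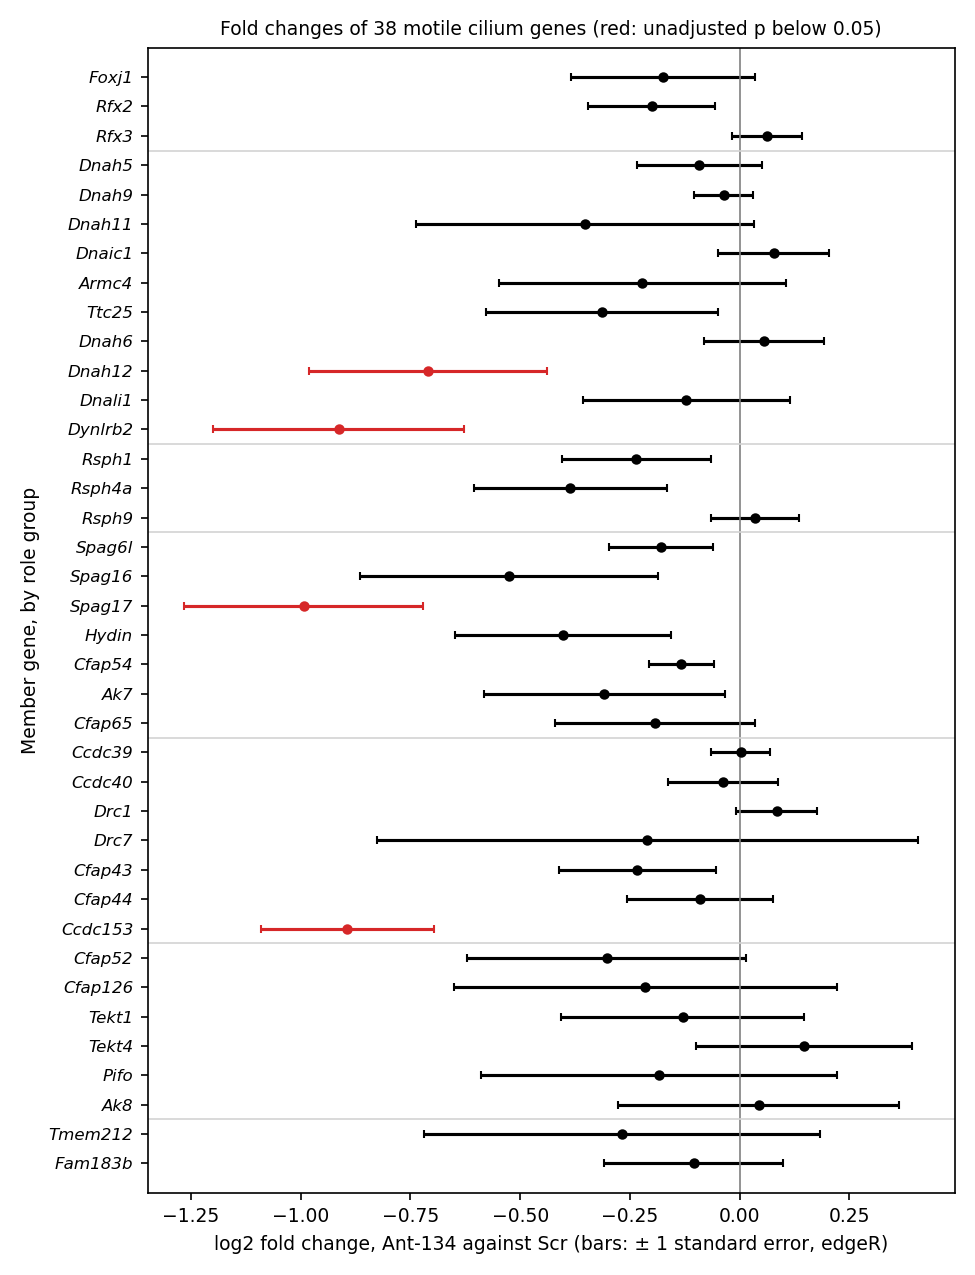
Log2 fold change of Ant-134 against Scr (x axis) for the 38 tested members (y axis, by role group), with bars of 1 standard error from edgeR. The 4 members with an unadjusted p below 0.05 are red and all lie below 0; most others lie between -0.5 and 0.1 with bars that reach 0.

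Other genes of the cilium programme were examined from lists kept apart from the members. Of the 80 further motile cilium genes tested, 5 were lower and 1 was higher at the unadjusted p, against 2.69% and 1.49% of all genes tested, with a median log2 fold change of -0.07. The lower genes were Cfap161 (-0.94), Stoml3 (-0.996), Cfap77 (-0.82), Dnah7b (-0.51) and Dnah10 (-0.49), and the higher one was Cfap100 (0.19). The paralogs Dnah7a (-0.06) and Dnah7c (-0.10) were not called, and whether reads were shared between them and Dnah7b was not tested. Stoml3 and Cfap77 had as few as 4 counts in a library. Cfap161, an inner protein of the doublet, had the smallest p of the list (adjusted p = 0.987, edgeR) and measured 1.37, 0.780, 0.534, 0.786 and 0.695 CPM in Ant-134 1 to 5 and 1.66, 1.25, 1.91 and 1.64 CPM in Scr 1 to 4. Only Ant-134 1 reached the Scr range. Without Ant-134 1, 13 genes of this list were lower, against 3.60% of all genes, leaving out each other mouse gave counts of 2 to 4, and leaving out both Ant-134 1 and Scr 3 gave 6. Dnal1, the most abundant per length at 18.2 FPKM and a dynein light chain, was at 130 ± 5.98 CPM (SD, n = 5) and 124 ± 2.18 CPM (SD, n = 4).

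None of the 12 tested regulators that start multiciliation passed in either direction. Trp73, a p53-family factor upstream of Foxj1, had a log2 fold change of -0.15 ± 0.144 and E2f4, a cofactor of the multiciliation programme with broad expression, one of -0.06 ± 0.0598. None of the 30 intraflagellar transport and primary cilium genes passed either, with a median log2 fold change of 0.04, though 1 was called higher without Scr 3, without Scr 4 and with the replicate block.

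Of 6 ependymal genes whose products lie outside the cilium, 1 was lower, against 2.69% of all genes, namely Tm4sf1 (-0.28 ± 0.108, adjusted p = 0.998, edgeR), and all 6 had a fitted fold change below 0. The count of 1 moved in 10 of 19 alternative analyses, to between 0 and 4, with 0 without Ant-134 3, Ant-134 4 or Scr 3, 2 without Scr 1 or Scr 4, 4 without Ant-134 1 and 3 without both Ant-134 1 and Scr 3. Nnat, the most abundant of them, was at 390 ± 73.1 CPM (SD, n = 5) in Ant-134 and 427 ± 56.9 CPM (SD, n = 4) in Scr. Several of these genes are also expressed by neurons, astrocytes or vessels.

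Markers of meningeal fibroblasts, which cover the surface of the tissue, moved in the same direction as the 4 members. Of 10 tested, 6 were lower in Ant-134 at the unadjusted p, against 2.69% of all genes, none was higher, against 1.49%, and none was at 0. Their summed level was 142, 212, 114, 138 and 160 CPM in Ant-134 1 to 5 and 174, 231, 189 and 218 CPM in Scr 1 to 4. Igf2 had the smallest p (log2 fold change -0.87 ± 0.243, adjusted p = 0.987, edgeR) and Dcn the highest level, at 42.6 ± 10.6 CPM (SD, n = 5) and 55.1 ± 8.08 CPM (SD, n = 4). The count was 2 without Scr 2 or without Scr 4, 3 without Ant-134 4 and 5 without both Ant-134 1 and Scr 3. Their part in the lower members was not tested.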

How the data were processed

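Poly-A RNA of 9 hippocampi (5 Ant-134, 4 Scr) was sequenced as paired ends. Per the labels and the study's methods, the authors used CASAVA 1.8, aligned reads to GRCm38/mm10 with HISAT2 2.0.5 and deposited raw counts per gene from featureCounts 1.5.0-p3. The deposited FPKM values, which the authors computed from these counts by gene length and library depth, served for levels between genes and as an alternative. The strand setting and the gene annotation are not given in the sources used here.

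Groups came from the sample titles. Genes passing filterByExpr (minimum count 10) were fitted together with edgeR 4.0.16 (TMM, quasi-likelihood, robust, treatment alone) in R 4.3.3, two-sided, with Benjamini-Hochberg adjustment over all genes tested. A call is an unadjusted p below 0.05, as in the study. Single members also had an exact permutation test. Scripts were tested on simulated data. The alternatives were DESeq2 1.42.0, its size factors, other filters, non-robust estimation, a replicate block, limma 3.58.1 with pseudocounts of 1 or 0.1 on log2 FPKM (with and without a filter), and leaving out each mouse. The p-values measure the spread between mice, each 1 library. Depth was 28583298 to 41978113 counts, and the floor of 3 counts covers counting error only, since duplicates were not marked by molecular identifiers. The 95% intervals of fold changes come from the edgeR fit and include the spread between mice.

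The members and all gene lists were chosen with earlier results of these data known. Members named with full statistics were those called, Foxj1 and, in each role group, the one with the highest mean FPKM and the one with the smallest p, and the same pair was named in most other lists. One gene that this rule names is not reported here. Other members, such as Drc7, Spag16 and Pifo, were named after their values had been seen. Motifs were searched in RefSeq promoters and 3′ UTR matches in GENCODE M21 transcripts.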

Additional observations from a re-analysis of the deposited data

Results flagged for a closer look

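Among 102 sets of 4 or 5 values, 1 for each member or list in each group, 10 held a mouse far from the rest of its group by Dixon's test, where chance alone gives about 1 in 20 sets, or 5.1. Ant-134 1 was the high one for 6 members. It measured 6.76 CPM for Spag6l, against 4.98 to 5.40 CPM in the other Ant-134 mice, 1.86 CPM for Spag16 against 0.721 to 0.936 CPM, and 13.8 CPM for Cfap65 against 6.66 to 8.499 CPM. It also measured 8.56 CPM for Drc7 against 1.67 to 3.33 CPM, 1.77 CPM for Pifo against 0.605 to 0.676 CPM, and 3.69 CPM for Fam183b against 1.69 to 2.24 CPM. These members belong to the central apparatus, the nexin-dynein regulatory complex, the doublet proteins and the other ependymal genes, and they share the tissue piece.

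The summed choroid plexus markers of Ant-134 1 reached 3561 CPM, against 213 to 986 CPM in the other Ant-134 mice. Rsph9, a radial spoke gene, was low in Scr 1 at 10.6 CPM, against 12.3 to 12.4 CPM in the other Scr mice. Ant-134 3, the lowest library for 17 of 38 members, had 228 CPM of summed thalamus markers, against 158 to 162 CPM, and 403 CPM of summed erythrocyte markers, against 69.0 to 116 CPM. The causes of these departures were not tested.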

How the results depend on the processing

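The 4 members lower at the unadjusted p became 2 with limma on log2(FPKM + 1) and 2 with log2(FPKM + 0.1). Leaving out each mouse gave 3 to 14 lower, with 14 without Ant-134 replicate 1, and 0 to 1 higher, the 1 being Rfx3 without Scr replicate 2. With the replicate number as a block 3 were lower. Same-numbered mice did not deviate together (correlations of deviations -0.115, -0.07, -0.022 and 0.012), so they share only a number. The block gave -0.54 for Dnah12, no longer called, and turned Rsph9 to -0.0332. Without 1 mouse Rsph9 ranged from -0.0310 to 0.0790 and Tekt1 from -0.371 to 0.0943. The highest-to-lowest ratio of the summed member level was 1.28 in CPM, 1.502 as a sum of FPKM, 1.89 as the median relative level and 1.17 to 1.28 without 1 mouse. The median member fold change stayed below 0 in all 19 alternatives, from -0.38 to -0.06, and the median spread between mice ranged from 18.3% to 24.0%. Ccdc153 and Dynlrb2 stayed below an unadjusted p of 0.05 in 19 of 19 alternatives and Spag17 in 17 of 17. Over all genes, 533 lower and 294 higher became 1211 and 564 without a filter, 935 and 532 with limma on all genes with any FPKM, 450 or 471 higher with limma after the filter, and 194 higher without Scr 3 or 186 without both Ant-134 1 and Scr 3. Adjusted calls, 0 as reported, were 14 without a filter, 16 with DESeq2, 17 without Ant-134 1, 18 without both and at most 2 otherwise. The causes of these shifts were not tested. Mia and Sntn, with at most 19 counts in a library, did not pass the filter, and Sntn was called lower without a filter and without Scr 1.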

Other observations

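Oligodendrocyte transcripts were also highest in Ant-134 1. Of 12 markers tested, none passed the unadjusted p between the groups, and Ant-134 1 was the highest library for all 12. Their summed level was 13060, 10430, 11810, 9218 and 7791 CPM in Ant-134 1 to 5 and 10320, 9810, 10230 and 10500 CPM in Scr 1 to 4. Astrocyte markers were steadier, at a summed 6545 to 7505 CPM in Ant-134 and 6531 to 7820 CPM in Scr, and none of 12 passed. Some were called lower in 2 of 19 alternative analyses.

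Thalamic markers had 1 of 9 higher, against 1.49% of all genes, namely Lef1, a Wnt-pathway factor (log2 fold change 0.44 ± 0.187, adjusted p = 0.998, edgeR), which was not called without Ant-134 3. The count moved in 8 of 19 alternative analyses, to 0 also without Scr 1, without Scr 4 and in each limma analysis of FPKM, and to 2 without a filter or without both Ant-134 1 and Scr 3. Erythrocyte markers had a median log2 fold change of 1.01 with none of 5 called as reported, and 1 or 2 called higher in 3 of 19 alternative analyses. All 5 were highest in Ant-134 3. Hbb-bs, a beta-globin gene, was at 76.9 ± 77.9 CPM (SD, n = 5) in Ant-134 and 35.6 ± 9.97 CPM (SD, n = 4) in Scr, with 216 CPM in Ant-134 3 and 33.9 to 56.2 CPM in the other Ant-134 mice.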
